A study of Mus musculus with 346 samples.

Results

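Prox1 is the gene followed here, through its own row of a single-cell table from mouse embryos: it is 1 of 20474 genes in the table. It was chosen by name and not by a rule on its values, although earlier results of these data were known. It was described over 346 cells in 5 groups, together with the genes whose levels rose or fell with it from cell to cell within each group. The transcript was found in 71 of 82 cells labelled foregut, 83 of 86 of the dorsal pancreatic bud, 27 of 27 of the ventral pancreatic bud, 66 of 78 of the liver bud and 24 of 73 labelled pancreas at E14.5 (E for embryonic day). It ran with genes for liver-secreted proteins in the liver bud, with Nkx2-2 and epithelial genes in the dorsal bud, and against collagens at E14.5. Most endocrine and epithelial genes at E14.5 were too rare for a correlation and are described by co-detection with it. In the liver and dorsal bud the correlations were smaller once cells carrying mesenchymal genes were left out, and both values are given. Within dorsal epithelial cells the epithelial genes as a list no longer ran with Prox1, but those cells were chosen by genes of the same list.

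Prox1 encodes a homeodomain transcription factor related to Drosophila prospero. In the embryonic gut it marks the endoderm from which liver and pancreas arise, and it is known to be needed for hepatoblasts to migrate out of the liver bud and for normal growth of the pancreas. It is also the master regulator of lymphatic endothelial identity, and is found in the developing lens, heart and nervous system. In pancreas it is known to be present in progenitors, to stay on in endocrine cells and to be low in mature acinar cells.

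Every cell came from Tg(Prox1-EGFP) embryos, a line in which a Prox1 transgene drives green fluorescent protein, and all of them carry the genotype label Prox1-GFP. Green cells were dissected, sorted by flow cytometry into plates and read with the Smart-seq2 method. The groups are the foregut at E8.5 (plate 1A, 82 cells), the dorsal pancreatic bud (plates 2A and 2B, 48 and 38 cells), ventral pancreatic bud (plate 3, 27 cells) and liver bud (plate 5A, 78 cells) at E10.5, and the pancreas at E14.5 (plate 4A, 73 cells). No group is without the transgene and none was sorted as negative. Because the sort used a reporter of Prox1 itself, cells without the reporter were left out before any value was measured, and reads of the reporter transcript were not analysed here. Apart from the dorsal bud each tissue is 1 plate, the labels name no embryo, and each group therefore counts as 1 sample: levels and correlations below are descriptions of these cells, without a test.

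Values are log2(normalized reads + 1), where normalized reads are reads divided by a size factor per cell, and a cell with no read is at 0. The word found means 5 or more normalized reads of a gene in that cell. Total recovered reads ran from 510222 to 3431728 per cell, and the median number of genes found per cell was 5794, 4992, 3695, 2813 and 2844 in the foregut, dorsal bud, ventral bud, liver and E14.5 groups. The labels were compared with marker genes, and 2 did not hold for most cells. On the plate labelled foregut, 60 of 82 cells had 3 or more of 14 neural tube genes, and only 8 had 2 or more of 6 core epithelial genes. On the E14.5 plate, whose source label is pancreatic epithelium, 58 of 73 cells had 3 or more of 16 mesenchyme genes and 13 had 2 or more core epithelial genes. These groups are called by their labels below, as cells labelled foregut and cells labelled pancreas. No cell of any group had 3 or more genes of the neural crest or blood lists.

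Prox1 lies on the minus strand of mouse chromosome 1 (chr1:190118035-190170714, GRCm38, GENCODE M21), and its exons cover 8390 bases. Both antisense genes at its 5′ end were in the table, and their values are given with the correlates. Gm28172 (chr1:190168670-190169633) lies inside the Prox1 gene and shares no exon base with it. Prox1os (chr1:190170296-190217276) starts within the first Prox1 exons, and 133 of its 828 exon bases overlap theirs. RefSeq gives Prox1 a start site on either side of that overlap. The 250 bases before each start are shown because they place the genes against one another: the first stretch lies outside the annotated Prox1 gene and within the span of Prox1os, and the second lies between annotated Prox1 exons and overlaps Gm28172. Both are from RefSeq on GRCm38.p6, are read on the minus strand from 5′ to 3′, and carry motif matches in capitals.
Prox1 upstream start, chr1:190170828-190171077: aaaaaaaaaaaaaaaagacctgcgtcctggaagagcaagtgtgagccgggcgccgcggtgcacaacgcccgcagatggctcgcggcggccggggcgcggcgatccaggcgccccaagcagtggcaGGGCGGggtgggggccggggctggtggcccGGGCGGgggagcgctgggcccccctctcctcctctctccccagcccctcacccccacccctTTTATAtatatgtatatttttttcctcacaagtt
Prox1 downstream start, chr1:190169516-190169765: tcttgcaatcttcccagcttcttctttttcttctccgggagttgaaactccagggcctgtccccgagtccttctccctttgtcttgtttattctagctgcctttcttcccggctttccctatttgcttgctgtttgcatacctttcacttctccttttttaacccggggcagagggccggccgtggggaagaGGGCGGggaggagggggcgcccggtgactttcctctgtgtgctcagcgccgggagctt
The motifs searched on both strands were the TATA box as TATAAA, the CAAT box as CCAAT, the GC box as GGGCGG, a forkhead motif as TGTTTAC and a GATA motif as GATAAG, and no match overlapped another. The upstream stretch holds TATAAA on its reverse strand at base 217 from its 5′ end and GGGCGG at bases 126 and 156, and the downstream stretch holds GGGCGG at base 193. TATAAA occurs in 12.4% and GGGCGG in 32.7% of all 32851 stretches of this length before RefSeq starts. The CAAT box (in 33.8% of all stretches), the forkhead motif (3.17%) and the GATA motif (6.55%) are not among the letters of either one. GC content was 64.8% in the first stretch and 56% in the second.

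The level of Prox1 was spread over the cells differently in each group. Among cells labelled foregut it ran from 0 through a median of 5.14 to 9.95, and 46 of 82 cells lay above 0 and below 6. In the dorsal bud it ran from 0 through 9.43 to 12.43, with 49 of 86 cells at 9 or more. Every ventral bud cell had the transcript, from 8.17 through 9.62 to 11.85, the narrowest range of the 5 groups. In the liver bud the values ran from 0 through 10.79 to 13.18: 36 of 78 cells were at 11 or more, while 9 had no read at all. Among cells labelled pancreas at E14.5 the median was 0, 47 of 73 cells had no read, and the 24 cells with Prox1 ran from 4.18 through 9.76 to 12.5. The foregut cells thus held a low level in most cells, whereas the E14.5 cells held a high level in a minority. Prox1 raw reads behind these calls were a median of 50 in the foregut cells that had it, against 643, 755, 3556 and 682 in the dorsal, ventral, liver and E14.5 cells that had it.

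**Figure D1:**
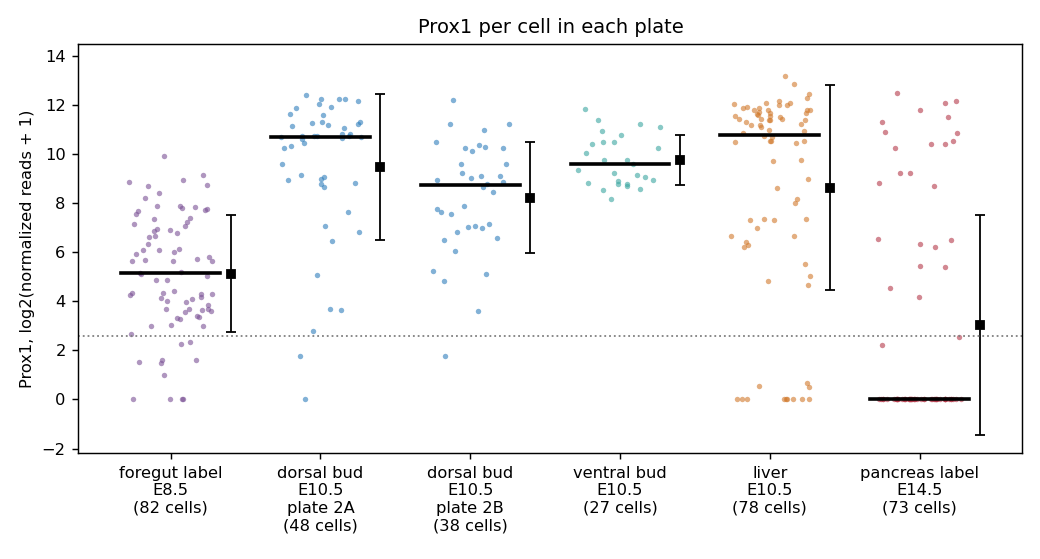
Prox1 in each cell as log2(normalized reads + 1), by plate. Each point is a cell, the bar is the median, the square with its line is the mean ± SD over cells, and the dotted line is the limit of 5 normalized reads. The ventral bud lies in a narrow band from 8.17 to 11.85, the liver bud and plate 2A have a dense upper group with a tail to 0, and most E14.5 cells lie at 0.

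Ordered by the mean, the ventral bud (9.76 ± 1.03, SD over 27 cells) came before the dorsal bud (8.92 ± 2.73, n = 86), the liver bud (8.64 ± 4.20, n = 78), the foregut cells (5.13 ± 2.39, n = 82) and the E14.5 cells (3.02 ± 4.49, n = 73). Of the 4 steps in that order, those from ventral to dorsal bud (0.84) and from dorsal bud to liver (0.28) were smaller than the SD of either group beside them. The step from liver to foregut cells (3.51) was larger than the foregut SD and smaller than the liver SD, and that from foregut to E14.5 cells (2.11) was smaller than both SDs. By the median the order of the first 3 was different, with liver highest at 10.79. Over cells where Prox1 was found, the foregut median was 5.69, below those of the dorsal bud (9.61), ventral bud (9.62), E14.5 cells (9.76) and liver (11.22). Shares of cells with Prox1, with exact Clopper-Pearson 95% intervals, were 86.6% of foregut cells (77.3 to 93.1), 96.5% of dorsal (90.1 to 99.3), 100% of ventral (87.2 to 100), 84.6% of liver (74.7 to 91.8) and 32.9% of E14.5 cells (22.3 to 44.9). These intervals cover counting of cells only.

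Plates 2A and 2B are the only repeat of a tissue. Prox1 was found in 46 of 48 cells of plate 2A and 37 of 38 of plate 2B. Its mean was 9.47 ± 2.97 on 2A and 8.23 ± 2.26 on 2B, with medians of 10.69 and 8.73, so that the plates differed by less than the SD of either. Cells with 3 or more mesenchyme genes were unevenly spread, 6 on plate 2A and 17 on plate 2B. Without them the Prox1 medians were 10.75 and 9.61.

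The other cell types on each plate had their own Prox1 levels. In the liver bud the 49 cells with 3 or more of 22 genes for liver-secreted proteins had Prox1 in 48 cases, from 0 through a median of 11.53 to 13.18. The other 29 liver cells had it in 18, with a median of 6.21 and a highest value of 10.5. The groups overlapped at 10.5 and below. In the dorsal bud the 62 cells with 2 or more core epithelial genes all had Prox1 (2.79, 10.48 and 12.43 as lowest, median and highest), and the remaining 24 had it in 21 (0, 6.95 and 11.24). The 23 dorsal cells with 3 or more mesenchyme genes reached only 8.84, with a median of 6.99. At E14.5 all 13 epithelial cells had Prox1, between 8.72 and 12.5 with a median of 10.92, while the other 60 had it in 11, none above 9.25. The 58 mesenchyme-bearing cells of that plate had Prox1 in 10, and the other 15 had it in 14. Cells with mesenchyme genes were not all without Prox1: the transcript was found in 21 of 23 such dorsal cells, 14 of 24 liver cells, 12 of 14 foregut cells and 10 of 58 E14.5 cells.

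Among the cells labelled foregut the split was between cells with and without neural tube genes. The 60 cells with 3 or more neural tube genes had Prox1 in 53 with a median of 4.64, and the other 22 had it in 18 with a median of 7.03. The 8 epithelial cells there had it in 7, with a median of 8.24. Foregut cells with 3 or more mesenchyme genes had a higher Prox1 median (6.82 in 14 cells) than the other 68 (4.87), the opposite order to the dorsal bud, liver and E14.5 groups. That order depended on the cells compared. Among those 68, the 6 epithelial cells had a median of 8.83, above the mesenchyme-bearing cells, and the 62 cells of neither kind had 4.37. In the ventral bud all 27 cells carried 3 or more liver-secreted genes, so that group gives no such split. Within it the 20 cells with 3 or more pancreatic progenitor factors had a Prox1 median of 9.3, against 10.42 in the other 7.

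**Figure D2:**
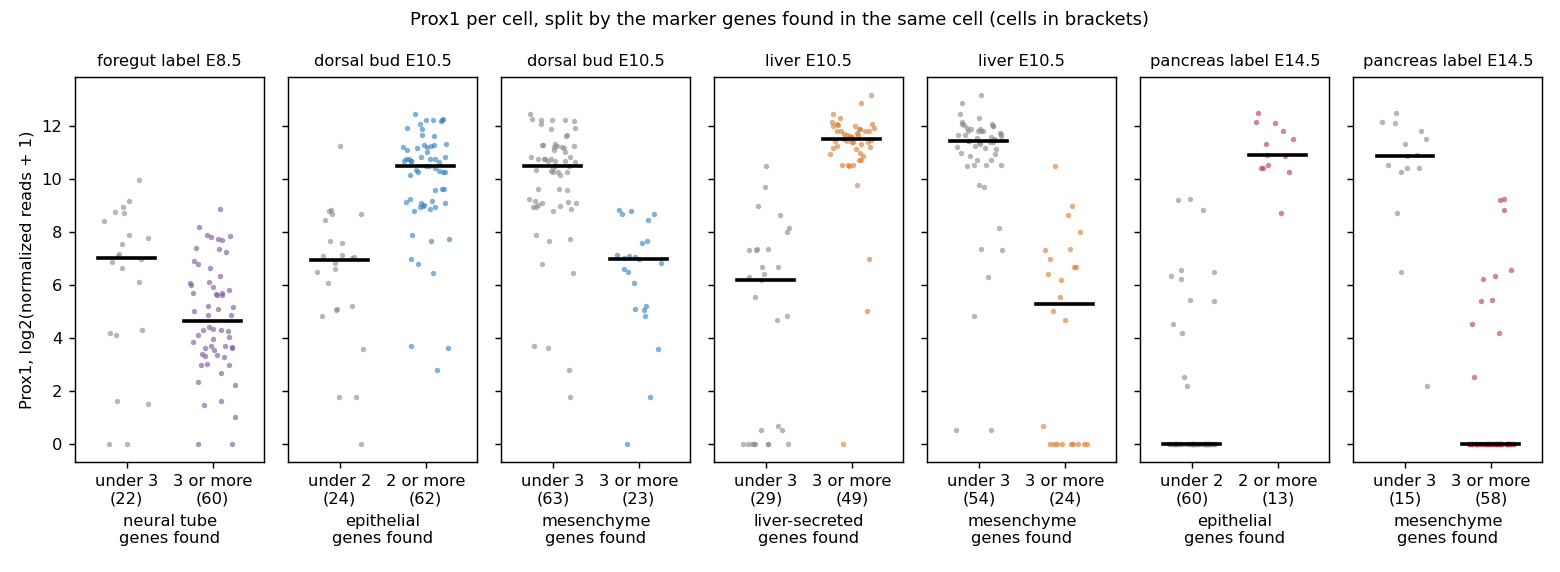
Prox1 per cell as log2(normalized reads + 1), split by how many marker genes of a list were found in the same cell (2 or more for core epithelial genes, 3 or more for the other lists). Each point is a cell and each bar a median. Cells with liver-secreted or epithelial genes sit high in the liver bud, dorsal bud and E14.5 pancreas, cells with mesenchyme genes sit lower in those 3 groups, and foregut cells with neural tube genes lie below the others.

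Genes that varied with Prox1 were sought in each group by Spearman rank correlation (rho) over its cells, among genes found in at least 25% of them. A gene was counted as rising with Prox1 at a rho of 0.4 or more and as falling at −0.4 or less. The cells of a group come from 1 plate (2 in the dorsal bud) and are not replicates, so rho is a description with no p-value. Prox1 itself varied with the number of genes found per cell, with rho values of −0.13 for foregut, −0.42 for dorsal, −0.35 for ventral, 0.54 for liver and 0.30 for E14.5 cells. The rho of Prox1 with the mitochondrial share was 0.36 at E14.5 and 0.27 in the foregut cells, and 0.37 on plate 2B. Counts with genes per cell held constant, and values in cells chosen by markers (a step mostly added after the data were seen), stand beside the results they change.

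In the liver bud Prox1 rose with the genes of the hepatoblast secretory programme. Of 3878 genes passing the 25% minimum, 568 rose with Prox1 (14.6%) and 45 fell (1.16%), and the median rho of all genes was 0.19. Of 22 genes for liver-secreted proteins, 18 passed the minimum and all 18 rose, with a median rho of 0.77. The leading genes were Cpm (carboxypeptidase M, chr10:117629500-117687352, rho 0.82), Trf (transferrin, 0.80), Itih2 (an inter-alpha-trypsin inhibitor chain, 0.80), Serpina1b (0.79) and Ambp (0.79). Ttr (transthyretin), Cited1 and Fgb (a fibrinogen chain) followed at 0.78 each. Cpm was found in 42 of 78 cells and every one of them had Prox1, between 10.48 and 13.18 with a median of 11.63, against a median of 6.36 in the cells without Cpm. All 47 cells with Itih2 had Prox1 as well, with a median of 11.55 against 5.55.

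The genes falling with Prox1 in the liver bud were led by Serpinh1 (the collagen chaperone, chr7:99345376-99353239, rho −0.74), Lgals1 (galectin 1, −0.73), Vim (vimentin, −0.72), Map1b (−0.71), Ptn (pleiotrophin, −0.70), Tmsb10 and Tmsb4x (thymosins, −0.69 each) and Sparc (−0.68). Lgals1 was found in 35 cells, 23 of them with Prox1, and Prox1 had a median of 6.43 with it and 11.53 without. Both mesenchyme genes that passed the minimum fell, with a median of −0.69.

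These liver values were smaller when other cells on the plate were left out. The summed log2 level of the 16 mesenchyme genes ran from 0 to 91.0 over liver cells, with each gene but 1 found in some cell, and had a rho of −0.78 with Prox1. Also, 12 liver cells carried 3 or more cardiac genes, with a Prox1 median of 6.83. In the 54 cells with fewer than 3 mesenchyme genes, 251 genes rose and 11 fell. The rho of Cpm was 0.65 there, that of Itih2 0.54 and that of Vim −0.29. In the 49 cells with 3 or more liver-secreted genes, 115 rose and 10 fell: Cpm stood at 0.55, Cited1 at 0.41, Trf and Itih2 at 0.39 and Fgb at 0.29, while Vim was at −0.14 and Tmsb10 at −0.06. The median of the secreted list, 0.77 over all cells, was 0.47 and 0.29 in these subsets. The second subset was chosen by genes of this same list, which narrows their range there. With the number of genes per cell held constant 334 genes rose. Of the 8 leading rising genes, Cpm and Cited1, a transcriptional coactivator, reached 0.4 within the hepatic cells.

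The transcription factors of the liver bud were tracked separately. Of 15 listed, 5 passed the minimum in liver and 4 rose, with a median of 0.48: Hhex, a homeobox factor of the early bud, at 0.52, Tbx3, which acts in hepatoblast expansion, at 0.50, Onecut2 at 0.48 and the nuclear receptor Hnf4a at 0.41. Gata6 was at 0.00. Hhex was found in 32 cells, 31 of them with Prox1 (median 11.63, against 7.34 without Hhex). With genes per cell held constant Hnf4a stood at 0.18. Hnf4a was found in 26 cells and all 26 had Prox1, from 9.76 through 11.44 to 12.28. Within the 49 hepatic cells the median of these factors was 0.17 and Hnf4a stood at −0.08. Gata4 was in 9 liver cells, under the minimum, and 5 of them had Prox1 (median 5.03, against 11.18 without Gata4). The 38 liver cells with 3 or more of these factors all had Prox1 at 9.76 or above.

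In the dorsal bud Nkx2-2 had the highest rho of the genes tested apart from the antisense Gm28172. Of 7596 genes tested, 73 rose with Prox1 (0.961%) and 205 fell (2.7%). Nkx2-2 (chr2:147177546-147194243), a homeobox factor of pancreatic and endocrine progenitors, had a rho of 0.72. It was found in 39 of 86 cells, all with Prox1 at 6.81 or more (median 10.83), and Prox1 in the other 47 had a median of 7.66. Spon1 (an extracellular spondin) followed at 0.63, then Kcnk16 (a potassium channel of islet cells) at 0.58, and Spint1, Spint2 (membrane protease inhibitors of epithelia), Serinc2 and Rtn1 (a reticulon) at 0.57 each, with Igfbp2 at 0.56. All 27 cells with Spon1 had Prox1 at 9.03 or more.

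The genes that fell were led by Mycn (chr12:12936093-12941914, a proto-oncogene of growing progenitors) at −0.69, Gja1 (a gap junction connexin) at −0.68 and Nr2f2 (COUP-TFII, an orphan nuclear receptor) at −0.63. Nop56 (a ribosome biogenesis factor, −0.60), Pimreg (a mitotic regulator, −0.59) and Psat1 (serine synthesis), Igdcc3 and Akr1b3 (−0.57 each) came next. Mycn was found in 33 cells, where Prox1 had a median of 6.99, and Prox1 had a median of 10.69 in the 53 cells without it. Gja1 gave 7.15 with and 10.69 without.

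The dorsal values differed between plates and between sets of cells. The summed mesenchyme level ran from 0 to 66.9 over dorsal cells, with Lum and Postn at 0 in every cell. Its rho with Prox1 was −0.46 over both plates, −0.20 on plate 2A and −0.73 on plate 2B. On plate 2A, 50 of 7404 genes rose with Prox1 (0.675%) and 66 fell (0.891%), and on plate 2B, 251 of 7908 rose (3.17%) and 808 fell (10.2%). Over the 6774 genes tested on both, 26 rose on both plates, which is 56.5% of the 46 on 2A and 11.1% of the 235 on 2B. For falling genes 24 were shared, 38.7% of 62 and 3.52% of 681, and 1 gene was counted in opposite directions. Nkx2-2 had 0.69 on 2A and 0.81 on 2B, Spon1 0.63 and 0.68, and Mycn −0.66 and −0.69. Others were further apart and under a limit on 2A: Spint2 had 0.39 and 0.75, Pimreg −0.37 and −0.73 and Akr1b3 −0.38 and −0.67, while Igdcc3 had −0.56 and −0.37. Kcnk16 had 0.41 and 0.75. Of 35 dorsal genes covered by the naming rule and past a limit, 21 stayed past it on 2A alone and 32 on 2B alone. Plate 2B held 17 of the 23 mesenchyme-bearing cells, and Prox1 there had a rho of −0.51 with genes per cell, −0.41 with reads and 0.37 with the mitochondrial share, against −0.21, −0.10 and 0.08 on 2A. The part of these in the plate difference was not tested. In the 63 dorsal cells with fewer than 3 mesenchyme genes only 13 genes rose and 16 fell. Nkx2-2 was at 0.59 in these cells, Spon1 at 0.54, Rtn1 at 0.47, Serinc2 at 0.44, Mycn at −0.49 and Nr2f2 at −0.40. Kcnk16, Spint1 and Spint2 stood at 0.19, 0.22 and 0.23. In the 62 epithelial cells the values were close to these, at 0.62 for Nkx2-2, 0.56 for Spon1 and −0.49 for Mycn. With the number of genes per cell held constant 98 genes fell over all 86 cells.

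The pancreatic programmes of the dorsal bud followed Prox1 to unequal extents. Of 9 progenitor factors that passed the minimum, Nkx2-2 and Nkx6-2 (0.51) rose. Pdx1, the homeobox factor that marks the pancreatic field, stood at 0.39, Nkx6-1 at 0.32, Sox9 at 0.30, Rfx6 at 0.28, Onecut1 at 0.26 and Gata4 at 0.05. The list's median was 0.30 beside −0.08 for all genes. On plate 2A, 2 of 9 factors rose (median 0.23), and on plate 2B, 7 of 9 (median 0.47). All 34 cells with Pdx1 had Prox1 (6.47, 10.65 and 12.43 as lowest, median and highest), and the 52 without it had a median of 8.81. All 37 with Nkx6-2 had Prox1, from the same lowest value. In the epithelial cells the list's median was 0.08, with Pdx1 at 0.16 and Nkx6-2 at 0.31. Of 5 endocrine factors that passed, Nkx2-2 alone rose, and Isl1 stood at −0.11 and Sox4 at −0.12. Endocrine factors too rare for a rho were nonetheless found only beside Prox1: Neurog3, the trigger of endocrine fate, in 9 cells (Prox1 10.77 to 12.43), Insm1 in 13 and Neurod1 in 20. Since 83 of 86 cells had Prox1, 30% of 12117 genes found in 5 or more dorsal cells share that property.

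Among other dorsal lists, 6 of 12 epithelial genes rose, with a median of 0.41, led by Spint1, Spint2 and Epcam (the epithelial adhesion molecule, 0.55). On plate 2A, 2 of 12 rose (median 0.22), and on plate 2B, 10 of 11 (median 0.65). In the 62 epithelial cells the median was 0.00. Those cells were chosen by core genes that are also in this list, which narrows the range of the list there. Dll1, a Notch ligand, was at 0.46 and Notch1 at 0.43, and the 9 Notch pathway genes had a median of 0.04. In the epithelial cells Dll1 stood at 0.29 and Notch1 at 0.38. Of 15 mitotic (G2/M) genes, 4 fell with Prox1, among them Mki67 (−0.44), Aurka (−0.44) and Plk1 (−0.41), with a list median of −0.33. It was −0.10 in the epithelial cells, and Mki67 was at −0.28 with genes per cell held constant. The plates differed in this list: none of 15 fell on plate 2A (median −0.13) and 13 of 15 fell on plate 2B (median −0.54). None of 15 S phase genes passed either limit over both plates (median −0.22), while on plate 2B alone 5 of 15 fell and on 2A none of 14 did. Of 2 mesenchyme genes that passed the minimum 1 fell, the fibrillar collagen Col3a1 at −0.62, and their median was −0.38. On plate 2A the 1 mesenchyme gene that passed stood at 0.03, and on plate 2B 4 of 6 fell (median −0.56).

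**Figure D3:**
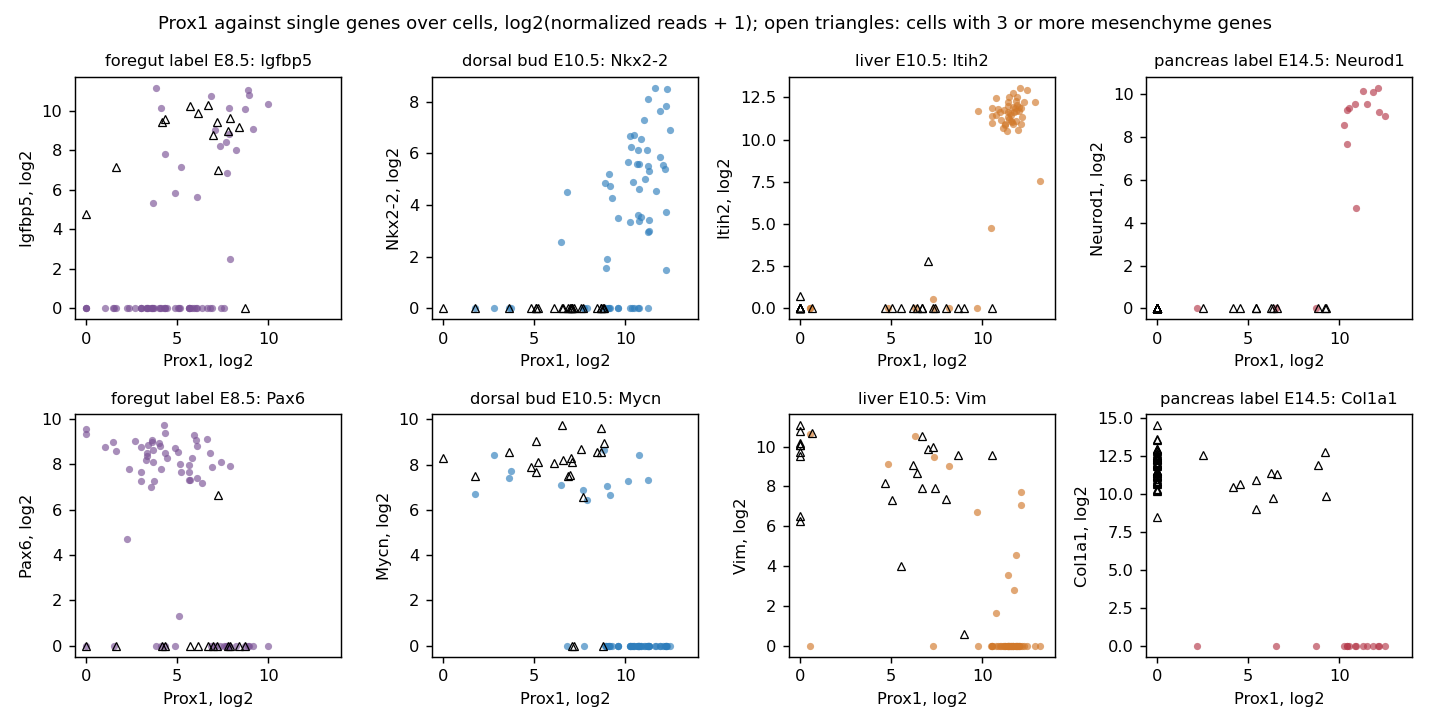
Prox1 (horizontal) against a leading rising and a leading or listed falling or co-detected gene (vertical) in 4 groups. Both are log2(normalized reads + 1), and each point is a cell. Open triangles are cells with 3 or more mesenchyme genes. Cells with Itih2, Nkx2-2 or Neurod1 sit high in Prox1, and the triangles gather at low Prox1 with Vim, Mycn and Col1a1.

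In the ventral bud all 27 cells had Prox1 and the comparison is therefore of its level alone. Of 5757 genes tested, 55 rose (0.955%) and 320 fell (5.56%). Kif11 (chr19:37376403-37421859), the mitotic spindle kinesin, had the lowest rho at −0.74: in its 10 cells Prox1 lay between 8.17 and 9.62, and in the other 17 between 8.80 and 11.85. Tmem51 and Tmx3 (−0.70 each), Tmem237 and Mtdh (−0.66 each) and Fdps, Terf1 and Cluh (−0.65 each) followed. Of the genes that rose, Atp6v1c1, a subunit of the vacuolar proton pump, led at 0.62, with Prox1 at a median of 10.47 in its 14 cells and 8.89 in the other 13. Efcab1 was at 0.59, Arl3, Anxa5 and Rcbtb1 at 0.57, Ypel2 at 0.56 and Ppp1r12a and Hnrnpf at 0.55. With 27 cells these are the least precise values of the 5 groups. With genes per cell held constant 90 rose and 191 fell. Rescaling cells by their median ratio to the mean over the cells of all 5 groups gave 112 rising and 122 falling genes. Kif11 was then at −0.53.

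Few single members of the lists passed a limit in the ventral bud. The summed level of a list had a rho with Prox1 of 0.52 for liver-secreted genes, −0.48 for mitotic genes and −0.42 for liver bud factors. Of 15 mitotic genes 4 fell, including Kif11, Ube2c (−0.55) and Cenpe (−0.49), with a median of −0.29 beside −0.09 for all genes. Of 14 liver-secreted genes that passed, Fgg (0.42) and Apoe (0.41) rose, and the median was 0.25. Onecut2 alone of 9 liver bud factors was past a limit, at −0.47, and none of 6 pancreatic progenitor factors or 12 epithelial genes was, with medians of −0.14 and 0.02. Onecut2 was at 0.48 in the liver and 0.41 in the dorsal bud. Pdpn, a gene reported as a Prox1 target in lymphatic endothelium, was at −0.58 in the ventral bud, 0.24 in the dorsal bud and 0.26 in the foregut cells.

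Among cells labelled foregut few genes varied with Prox1. Of 8020 tested, 7 rose (0.0873%) and 12 fell (0.15%), and the median rho was −0.01. Igfbp5 (chr1:72857932-72874884, a binding protein of insulin-like growth factors) was highest at 0.54, with Prox1 at a median of 7.09 in its 33 cells and 4.12 in the other 49. Tmem201 and Cst3 (cystatin C, 0.43 each), Galnt11 (0.41) and Serpinh1, Pbxip1 and Surf4 (0.40 each to 2 decimals) followed. Pax6 (chr2:105668900-105697364), a paired homeobox factor of the neural tube, was lowest at −0.47: its 48 cells had a Prox1 median of 4.19 and did not exceed 7.90, and the other 34 had a median of 7.12. Sfrp2, a secreted Wnt modulator, and Sdad1 were at −0.44, Slc2a1 (the glucose transporter GLUT1), Gja1, Fdps and Nr2c2ap at −0.43 and Slc35c2 at −0.41.

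Neural tube genes were among those that fell in the foregut cells. Their summed level ran from 0 to 63.3, with Dcx found in no cell, and had a rho of −0.30 with Prox1. The summed mesenchyme level had 0.36 and the summed liver-secreted level 0.31 in these cells. Of 7 neural tube genes that passed the minimum, Pax6 and Crabp1 (−0.40) fell, and the median was −0.23. In the 22 cells with fewer than 3 neural tube genes Igfbp5 stood at 0.31 and Pbxip1 at −0.02, and 277 genes rose and 387 fell. Over so few cells each rho is less precise and unrelated genes pass the limits more easily. None of 3 epithelial genes passed the limit (median 0.23), and Foxa2, a forkhead factor of endoderm, stood at 0.26. Hhex was in 10 foregut cells, 9 of them with Prox1, with a Prox1 median of 8.14 against 4.95 in the rest. In the 68 cells with fewer than 3 mesenchyme genes 11 genes rose.

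At E14.5 Prox1 was at 8.72 or more in all 13 epithelial cells and absent from most cells with mesenchyme genes, of which the highest reached 9.25. Of 4209 genes tested, 49 rose (1.16%) and 92 fell (2.19%). Col1a1 (chr11:94936224-94953042, collagen I) was lowest at −0.66 and Col1a2 followed at −0.64: each was found in 58 of 73 cells, 10 of them with Prox1. Prox1 had a median of 0 in the cells with Col1a1 and 10.85 in the 15 without it. Plagl1 (−0.62), Akap12, Dlk1 (the imprinted Notch-like ligand), Islr and Gpc3 (−0.60 each) and Smoc2 (−0.59) came next, and Smoc2 shared only 2 of its 36 cells with Prox1. Of 13 mesenchyme genes that passed, 6 fell and the median was −0.39. The summed mesenchyme level ran from 0 to 127.5, with a rho of −0.58, and its part in the other values was not tested. Restricted to the 24 cells with Prox1, that median was −0.64 and Col1a1 stood at −0.69. The 24 cells still hold both the 13 epithelial cells and 10 with mesenchyme genes.

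The genes that rose at E14.5 were led by Cpt2 (chr4:107903981-107923610, mitochondrial fatty acid import) at 0.64 and Glud1 (glutamate dehydrogenase) at 0.60, followed by Cnot6l (0.56), Tpst2 (0.54) and Rfx3 and Hmgn3 (0.53 each). Cpe, the carboxypeptidase that trims prohormones, was at 0.52, and Rfx3 is a factor of islet cell maturation. Over the 24 Prox1 cells alone Cpt2 was at 0.82, Cpe at 0.72, Glud1 at 0.63 and Rfx3 at 0.62. Cnot6l and Tpst2 were at 0.35. Those 24 are the 13 epithelial cells and 11 others with Prox1 at 9.25 or less, so these values are not from a single cell type. Most endocrine genes were in fewer than 25% of these cells and have no rho, so they are given by co-detection.

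All 12 cells with Neurod1 had Prox1, from 10.27 through 11.12 to 12.5, and no cell without Neurod1 exceeded 9.25. All 13 with Nkx2-2 had it, as did all 9 with Neurog3 (Prox1 10.40 to 12.5), 10 with Insm1, 10 with Rfx6, 9 with Pax6 and 8 with Pax4. Fev was in 8 cells, 7 of them with Prox1. Isl1 and Sox4 were different, in 20 and 34 cells of which 8 each had Prox1. The granule genes Chga and Chgb were in 10 and 9 cells, all with Prox1. Epcam (10), Cldn6 (11), Krt8 (13) and Krt7 (13) were also found only in Prox1 cells, as were Pdx1 in 5 cells, Nkx6-1 in 9 and Foxa2 in 11. Cpa1, a marker of acinar and tip cells, was in 5 cells and Prox1 in 1 of them. Sox9 was in 7, with Prox1 in 5. Of 9812 genes found in 5 or more E14.5 cells, 195 (1.99%) were found only beside Prox1. The same held for 10 of 11 epithelial genes, 8 of 11 endocrine factors, 4 of 5 granule genes, 5 of 7 progenitor factors and 0 of 15 mesenchyme genes. A gene found in more cells than the 24 with Prox1, such as Col1a1 or Col1a2 in 58 each, cannot meet this. The share of all genes was not matched for the number of cells a gene was found in.

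The same count in other groups gave 1686 of 8880 genes in the liver bud (19%) and 887 of 11813 in the foregut cells (7.51%). In the liver it held for 14 of 19 liver-secreted genes and 10 of 13 liver bud factors, and for none of 8 mesenchyme genes. In the foregut cells it held for 5 of 9 liver-secreted genes and 3 of 11 liver bud factors, and for none of 10 epithelial genes.

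**Figure D4:**
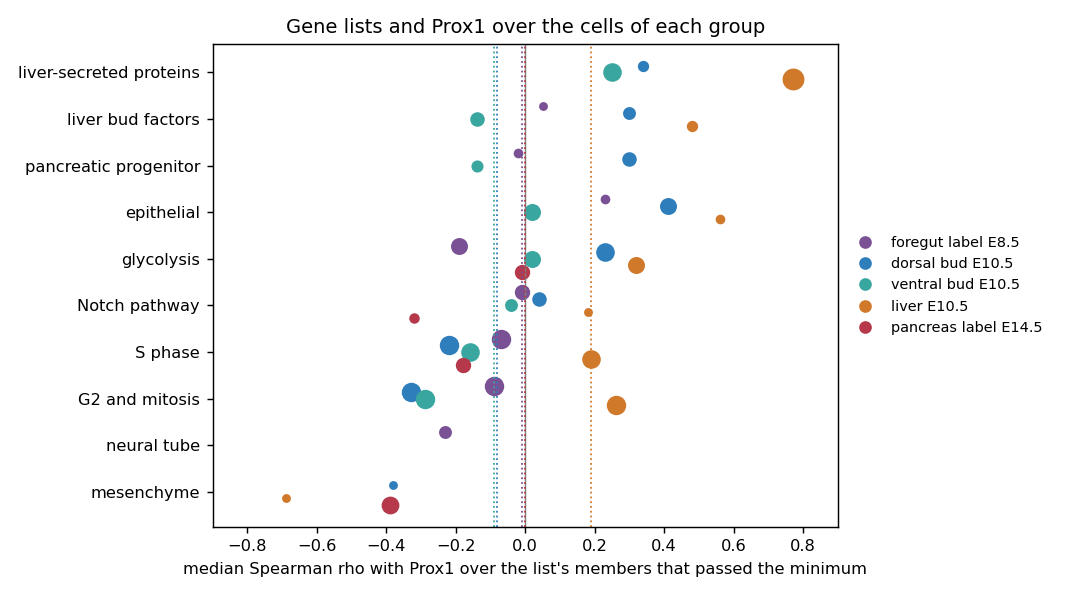
Median Spearman rho with Prox1 of the members of 10 gene lists in each group, shown where 2 or more members were found in at least 25% of the cells. Point size grows with the number of members, and dotted lines are the medians of all genes tested. The liver-secreted list in the liver bud stands at 0.77, mesenchyme lies below 0 in the dorsal bud, liver and E14.5 groups, and the mitotic list lies below 0 in both pancreatic buds and above 0 in the liver, where it is −0.06 with genes per cell held constant.

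Known partners and regulators of Prox1 were followed as a list of 12. Nr2f2, a partner of Prox1 in lymphatic specification, fell with it in the dorsal bud (−0.63), the liver (−0.57) and at E14.5 (−0.49), and stood at −0.28 in the ventral bud. In the liver it was found in 45 cells, where Prox1 had a median of 7.31, against 11.46 without it. The rho of Nr2f2 was −0.40 in dorsal cells with fewer than 3 mesenchyme genes and 0.06 in the 49 hepatic liver cells. Nr5a2, a nuclear receptor that Prox1 is known to repress, was in 19 dorsal cells and 19 liver cells, all with Prox1. The Prox1 median with it was 10.83 in the dorsal bud and 11.68 in the liver, against 8.94 and 8.98 without. The rho of Nr5a2 in the ventral bud was 0.14. Of genes found in 5 or more cells, 30% of 12117 dorsal and 19% of 8880 liver genes were likewise found only beside Prox1. Hdac3 and Kdm1a, chromatin repressors that bind Prox1, stayed between −0.22 and 0.20 in all 5 groups. Foxc2 and Sox18, upstream factors of lymphatic cells, reached at most 2 and 12 cells of a group. Prox2, the other vertebrate prospero gene, was found in at most 4 cells of a group.

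Reported targets of Prox1 were in 9 of 13 cases in the table, and few moved. Notch1 rose in the dorsal bud (0.43; 0.49 on 2A and 0.39 on 2B), Ccne1 (cyclin E1) rose in the liver (0.43; −0.04 within hepatic cells), Pdpn fell in the ventral bud and Cdkn1c (the p57 cell cycle inhibitor) fell at E14.5 (−0.45). Elsewhere Cdkn1c stood at 0.38 (foregut cells), −0.13 (dorsal), −0.17 (ventral) and −0.21 (liver). Fgfr3 passed the minimum in the foregut cells only, at 0.07.

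The antisense genes at the locus had some of the strongest values. Gm28172 had a rho of 0.78 in the dorsal bud (0.66 on 2A, 0.81 on 2B), 0.62 in the liver and −0.12 in the ventral bud, and was found in 57 of 86 dorsal, 34 of 78 liver and 15 of 27 ventral cells. Prox1os was at 0.53 in the dorsal bud (0.60 and 0.54), 0.41 in the liver and 0.24 in the ventral bud, and was found in 50, 22 and 8 cells. Whether reads were counted by strand is not given in the sources used here, so reads of Prox1os cannot be told from those of Prox1 where their exons overlap, and reads of unspliced Prox1 RNA cannot be told from those of Gm28172. Of other genes within 1 Mb, Smyd2 stood at 0.11, −0.30 and −0.32 in the foregut, dorsal and ventral groups (−0.05 on plate 2A and −0.53 on 2B), and Ptpn14 at 0.12, −0.14 and −0.28. Cenpf, a kinetochore gene, fell in the ventral bud at −0.45 and stood at −0.30 in the dorsal bud, 0.28 in the liver and 0.00 in the foregut cells.

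Few genes followed Prox1 in the same direction everywhere. Of 4047 genes that passed the minimum in at least 4 groups, 148 had a positive rho in each of their groups (3.66%) and 147 a negative one (3.63%), and none was past 0.4 or −0.4 in all. The genes most like Prox1 by this measure were F11r, Tmem176b, Pld3, Atp6ap2, Atp6ap1, Atp6v0e, Tma7 and Gstz1, whose smallest rho lay between 0.12 and 0.18. F11r, a tight junction adhesion molecule, had 0.30 for foregut, 0.36 for dorsal, 0.18 for ventral and 0.31 for liver cells. Pld3 was at 0.30, 0.36 and 0.17 in the first 3 of these and 0.42 at E14.5. Atp6ap1, Atp6ap2 and Atp6v0e belong to the vacuolar proton pump, and Atp6v0e ran from 0.12 in the foregut to 0.52 in the liver. Whether the genes of the pump as a set ran with Prox1 was not tested. The most unlike genes were Ptn, Nr2f2, Peg12, Dusp12, Mest, Gja1, Oat and Smarcd1. Ptn had −0.38 over foregut, −0.48 over dorsal, −0.70 over liver and −0.59 over E14.5 cells. Gja1 was at −0.43, −0.68 and −0.43 in the foregut, dorsal and ventral groups and −0.16 at E14.5. Mest, an imprinted mesodermal gene, ran from −0.16 in the ventral bud to −0.65 in the liver, and in the dorsal cells with fewer than 3 mesenchyme genes it stood at 0.06, against −0.47 over all dorsal cells.

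Other genes ran with Prox1 in one tissue and against it in another. Among the same 4047 genes, 43 were counted as rising in 1 group and falling in another, over all cells of each group. Examples chosen after their values were seen are Dlk1, at 0.66 in the liver and −0.60 at E14.5, and Meg3, the maternally expressed RNA of the same imprinted region, with 0.47 in dorsal bud, 0.60 in liver and −0.56 in E14.5 cells. Map1b was at −0.71 in the liver and 0.46 at E14.5. Kif11 was at −0.74 in the ventral bud and 0.42 in the liver, and Npm1, a nucleolar protein of growing cells, at −0.50 in the dorsal bud and 0.70 in the liver. The mitotic list, with a dorsal median of −0.33 and a ventral one of −0.29, had a median of 0.26 in the liver, where 1 of 15 members rose and all genes had 0.19. With genes per cell held constant the liver median of that list was −0.06 and Kif11 stood at 0.15, while Map1b stood at −0.58. The count of 43 and the values of Npm1, Dlk1 and Meg3 are without genes per cell held constant. Prox1 itself had a rho with genes per cell of 0.54 for liver, −0.42 for dorsal and −0.35 for ventral cells. How much of the opposite signs goes with this, or with the mix of cell types on each plate, was not tested. No test of a difference between tissues is possible with 1 sample per group.

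**Figure D5:**
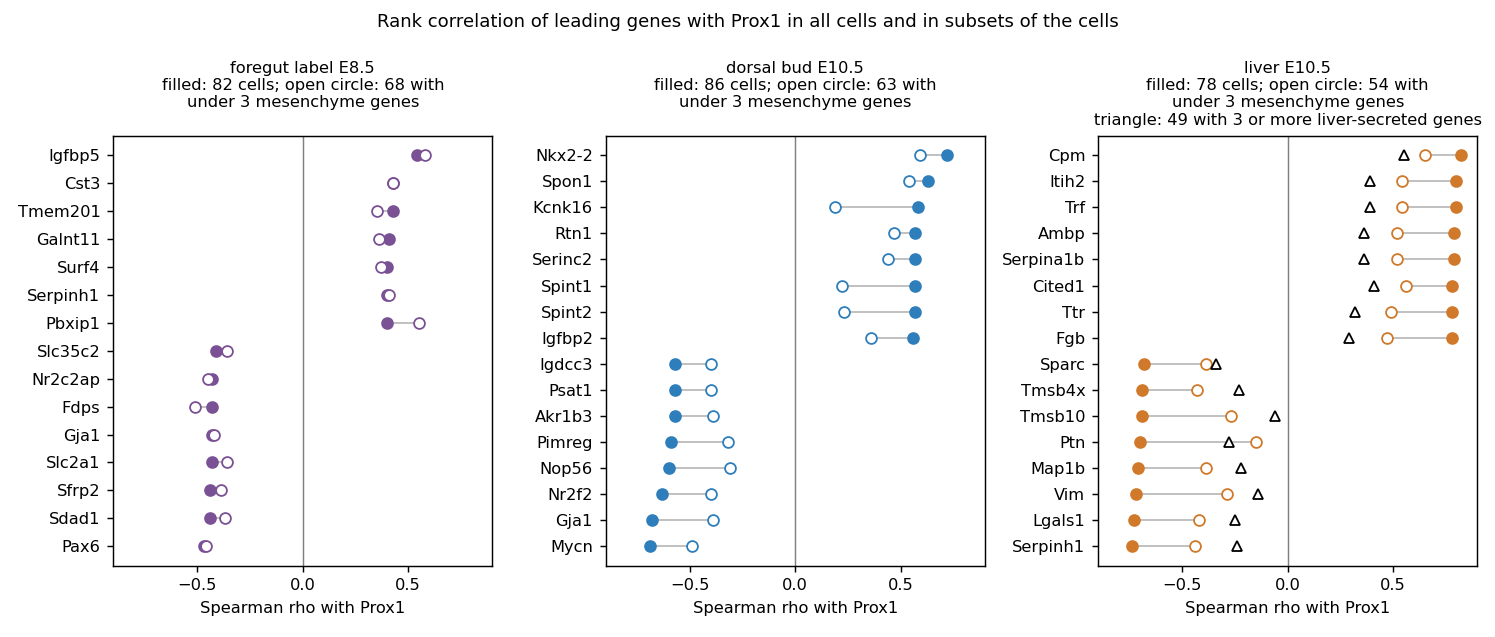
Spearman rho with Prox1 of leading genes in the foregut, dorsal bud and liver groups, over all cells and over the cells with fewer than 3 mesenchyme genes, and for the liver also over the 49 cells with 3 or more liver-secreted genes (triangles). Dorsal Nkx2-2, Spon1 and Mycn stay past 0.4 or −0.4 in the subset, Kcnk16, Spint1 and Spint2 move to about 0.2, and liver falling genes move towards 0.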

How the data were processed

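Smart-seq2 libraries were made from single sorted cells. The submitters' processing notes name STAR 2.5.3 and the GRCm38 build, together with Cufflinks and Cuffdiff 2.2.1. How reads were counted, on which annotation, with what size factors and whether by strand is not stated in the sources used. The series text names 452 processed cells and the table holds the 346 that passed the submitters' checks. The deposited values are on the log2 scale, read as log2(reads / size factor + 1) from the values themselves: 1647510 of 1647530 lie within 0.01 of whole reads. Empty entries, 76.7% of the table, were set to 0. Groups follow the labels. No doublet caller was run and no cell was removed.

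From these values the distribution of Prox1, shares of cells at 5 or more normalized reads with exact Clopper-Pearson 95% intervals, and Spearman rho with every gene found in at least 25% of a group's cells were computed (Python 3.11.15, numpy 2.4.6, pandas 2.3.3, scipy 1.17.1, matplotlib 3.10.9). PCR reads carry no molecular identifiers, so reads are not independent molecules and intervals cover counting error only. Coordinates are from GENCODE M21, which matched 20419 names. Another 23 names had been turned into dates and were not named.

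Named genes are the 8 with the highest and the 8 with the lowest rho per group (same sign on both dorsal plates), leaving out predicted, ribosomal and mitochondrial genes, Xist and genes of the Y chromosome. Also named are the 8 most like and unlike Prox1 over at least 4 groups, up to 3 members per list, all members of the lists of partners and of liver, progenitor and endocrine factors, and genes within 1 Mb. Gm28172 lies in that window. Fixed gene lists numbered 23. Values of some named genes are not reported here. The gene, the lists and the rules were chosen with earlier results of these data known. The correlation step was tested on simulated data. Alternatives were Pearson correlation, other detection minimums, genes per cell held constant, median-of-ratios scaling over 2800 genes, thinning to 500000 reads per cell, single plates and subsets of cells.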

Additional observations from a re-analysis of the deposited data

How the results depend on the processing

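The mean Prox1 level of each group moved by less than its SD over cells under every alternative run. That SD is a wide measure, at 4.20 in the liver and 4.49 at E14.5. The liver mean, 8.64 over all cells, was 11.06 in the 49 cells with 3 or more liver-secreted genes. It was 10.64 in the 54 with fewer than 3 mesenchyme genes. The share of foregut cells with Prox1 was 95.1% when any read counted and 56.1% at 20 or more normalized reads, against 86.6%.

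Counts of correlates depended on the settings, given here with the count over all cells first. Foregut rising genes numbered 7, and 2 with Pearson correlation, 11 in cells with fewer than 3 mesenchyme genes and 277 in the 22 cells with fewer than 3 neural tube genes. Foregut falling genes numbered 12, and 29 with median-of-ratios scaling, 29 with thinned reads and 387 in those 22 cells. Dorsal rising genes numbered 73, and 44 at a 50% minimum and 13 in cells with fewer than 3 mesenchyme genes. Dorsal falling genes numbered 205, and 98 holding genes per cell constant, 116 at a 50% minimum and 16 in cells with fewer than 3 mesenchyme genes. Over the genes tested in the whole dorsal bud, 48 rose and 83 fell on plate 2A, and 260 rose and 746 fell on plate 2B. Ventral rising genes numbered 55, and 90 holding genes per cell constant, 35 at a 50% minimum and 112 with median-of-ratios scaling. Ventral falling genes numbered 320, and 191, 112 and 122 under the same settings. Liver rising genes numbered 568, and 334 holding genes per cell constant, 367 with thinned reads, 251 in cells with fewer than 3 mesenchyme genes and 115 in cells with 3 or more liver-secreted genes. Liver falling genes numbered 45, and 12 at a 50% minimum, 11 and 10 in those subsets. Rising genes at E14.5 numbered 49, and 12 at a 50% minimum and 83 with median-of-ratios scaling. Subsets and the ventral bud hold fewer cells, where unrelated genes pass the limits more easily, and the causes were not tested.

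Signs turned for Pbxip1 in the foregut cells with few neural tube genes (−0.02), and in the dorsal bud for Mest (0.15 in epithelial cells, 0.06 in cells with few mesenchyme genes) and Rbp4 (−0.04 and −0.02), while the dorsal epithelial list had a median of 0.00 in epithelial cells. In liver cells with 3 or more liver-secreted genes they turned for Ccne1 (−0.04), Hnf4a (−0.08), Krt8 (−0.06) and Nr2f2 (0.06). Of the 35 dorsal genes named and past a limit, 33 kept their sign and 6 stayed past it in cells with few mesenchyme genes. Of 36 in the liver these counts were 36 and 16, and among cells with 3 or more liver-secreted genes 32 and 5. At E14.5, 24 of 24 kept their sign and 20 stayed past the limit over the 24 Prox1 cells, which include both epithelial and mesenchyme-bearing cells.

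No paired analysis was possible because the replicate numbers only name cells in accession order and each group is 1 sample. The subsets by mesenchyme, liver-secreted and neural tube genes were chosen after seeing the data. The epithelial subset reached 20 cells only in the dorsal and ventral buds, and the subset with few mesenchyme genes was not run at E14.5, where it has 15 cells.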
